A study of Homo sapiens with 3 samples.

Results

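The metallothionein genes *MT2A*, *MT1E*, *MT1F*, *MT1G*, *MT1H*, *MT1M* and *MT1X* were followed across the siRNA arrays. They are 7 of the 21614 genes that could be named on the array through the transcript accession of a probe. The rule picks them by name, but the family was put forward with earlier results of these arrays known. HCT116, an established human colon cancer cell line, was treated for 48 h with control siRNA or with siRNA #7 or siRNA #8, both directed at *HOXA5* short RNA, a transcript from the *HOXA6-HOXA5* locus. Each culture gave 400 ng of RNA for a single-dye hybridization on 1 SurePrint G3 array, so that every condition is 1 array and no difference between conditions has a replicate check or a p-value of its own. Control siRNA and both *HOXA5* siRNAs were given to the same parental line, and no rescue arm is among these 3 arrays. Cells made to overexpress the short RNA were not used here.

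Metallothioneins are small, cysteine-rich proteins of the cytosol and nucleus that bind zinc, copper and cadmium through their thiols and so buffer free zinc and limit metal toxicity. Their genes lie side by side on chromosome 16 and are switched on by zinc or cadmium through MTF1, a zinc-sensing transcription factor that binds metal response elements in their promoters, and also by glucocorticoids and by oxidative stress. *MT2A* and the *MT1* genes are expressed in many epithelia, including that of the colon, whereas *MT3* is best known from brain and *MT4* from stratified squamous epithelium.

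The siRNAs are shown because the metallothionein values differed between them although they overlap along their target. The sequences are given 5′ to 3′ as the study designed them, and the 17 bases that both share are in capitals. Each is 21 bases long, and the shared bases begin after the first 4 bases of siRNA #7 and at the first base of siRNA #8.
siRNA #7: gagaAACUGAAAGACAACAUA
siRNA #8: AACUGAAAGACAACAUAggcg

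The promoters are shown because MTF1 acts on this family through metal response elements, whose core can be searched for in their sequence. Promoter sequence from RefSeq (GRCh38.p14) was matched for 3 of the 7 genes, *MT2A*, *MT1H* and *MT1X*, and none is printed for *MT1E*, *MT1F*, *MT1G* and *MT1M*. The 250 bases before each start site are given 5′ to 3′ on the plus strand. Capitals mark every core of the metal response element, searched as TGCACNC or TGCGCNC on both strands.
*MT2A*, chr16:56608334-56608583, plus strand: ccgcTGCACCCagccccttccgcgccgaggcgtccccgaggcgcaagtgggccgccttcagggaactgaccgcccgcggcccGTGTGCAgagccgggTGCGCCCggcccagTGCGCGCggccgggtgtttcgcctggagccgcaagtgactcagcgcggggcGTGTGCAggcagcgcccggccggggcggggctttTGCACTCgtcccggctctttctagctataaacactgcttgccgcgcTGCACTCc
*MT1X*, chr16:56682220-56682469, plus strand: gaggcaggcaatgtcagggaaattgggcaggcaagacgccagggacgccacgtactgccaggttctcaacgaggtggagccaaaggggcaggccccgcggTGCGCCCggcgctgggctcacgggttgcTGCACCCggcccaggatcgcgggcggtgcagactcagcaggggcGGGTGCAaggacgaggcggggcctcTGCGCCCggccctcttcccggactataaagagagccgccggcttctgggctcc
*MT1H*, chr16:56669564-56669813, plus strand: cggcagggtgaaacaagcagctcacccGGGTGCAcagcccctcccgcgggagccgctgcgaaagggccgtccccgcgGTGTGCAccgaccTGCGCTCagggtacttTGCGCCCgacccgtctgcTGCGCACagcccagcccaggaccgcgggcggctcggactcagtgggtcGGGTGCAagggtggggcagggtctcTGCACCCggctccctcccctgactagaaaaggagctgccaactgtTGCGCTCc

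The *MT2A* promoter held 7 cores, 5 on the sense and 2 on the antisense strand, and a TATAAA that began 29 bases before the start site. The *MT1X* promoter held 4 cores, 3 sense and 1 antisense, with its TATAAA 30 bases before the start site, and the *MT1H* promoter held 8 cores and no TATAAA. No core overlapped a TATAAA. Of 35116 promoters searched in the same way, 24.8% held at least 1 core and 6.80% held TATAAA on the sense strand. At least as many cores as in *MT1X* were found in 0.370% of promoters. The share was 0.0313% for at least as many as in *MT2A* and 0.0171% for at least as many as in *MT1H*, each with the gene's own promoter counted. A match of these letters is a description of the sequence. Binding at these cores was not measured.

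Each array carried 50599 gene probes, of which 37.7% to 40.5% were well above background, and no spot was saturated. The deposited intensities are not scaled between arrays. The level of a probe is therefore given on a log2 scale relative to the 75th percentile of its array, which lay at 52.8, 42.1 and 42.8 intensity units for control siRNA, siRNA #7 and siRNA #8. A difference of 2 such levels is called a log2 ratio, and -1 is a 2-fold lower level. The error given with a ratio is a spot-to-spot SD from probes printed 10 times on each array. It covers spotting and scanning and not the spread between cultures. The comparisons of siRNA #7 and of siRNA #8 with control siRNA share the control array. The epithelial markers of the line were present, with 7 of 8 above background on all arrays (not *VIL1*), while among 6 markers of blood, fibroblast and endothelial cells only *COL1A1* was. The single *HOXA5* probe read 84.9, 52.6 and 58.5 on the control, siRNA #7 and siRNA #8 arrays. Scaled, this is a log2 ratio to control of -0.36 ± 0.25 for siRNA #7 and -0.23 ± 0.26 for siRNA #8 (spot-to-spot SD, 1 array each). Whether that probe reads the short RNA or the mRNA was not tested.

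The 7 metallothionein genes were covered by 9 probes, each printed on 1 spot. *MT2A*, *MT1E*, *MT1F*, *MT1M* and *MT1X* were well above background on all 3 arrays, with 7 probes. *MT1G* and *MT1H* were not well above background on any array. *MT1G* read 2.17, 1.67 and 1.63 with control siRNA, siRNA #7 and siRNA #8, and *MT1H* read 2.15, 1.63 and 1.56 in the same order, so no ratio is given for either. The *MT1* genes are closely related in sequence, and probe sequences were not used here. A probe named for 1 of them can therefore carry signal from another, and their ratios are not taken as independent measurements. How far signal is shared was not tested. On the control array *MT1G* and *MT1H* read 2.17 and 2.15 and *MT1F* 180, beside 15240 for the brighter *MT1E* probe.

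*MT2A*, the main metallothionein 2 gene, read 26270, 18947 and 17867 intensity units on the control, siRNA #7 and siRNA #8 arrays. Scaled log2 levels were 8.96, 8.81 and 8.71, so that the control array was the highest and the 3 values lay close together. Against control this is a log2 ratio of -0.14 ± 0.14 for siRNA #7 and -0.25 ± 0.15 for siRNA #8.

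*MT1E*, a metallothionein 1 gene, had 2 probes. Its brighter probe read 15240, 13362 and 8349 on the control, siRNA #7 and siRNA #8 arrays, and its dimmer probe read 14800, 13144 and 7207. On both probes the siRNA #8 array was the lowest after scaling (log2 levels of 8.17, 8.31 and 7.61 for the brighter probe), and the other arrays lay near each other. On the log2 scale the brighter probe gave ratios to control of 0.14 ± 0.14 for siRNA #7 and -0.56 ± 0.15 for siRNA #8, and the dimmer one gave 0.16 and -0.74.

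*MT1M*, another metallothionein 1 gene, read 2311 on the control array, 1836 after siRNA #7 and 1217 after siRNA #8. Its log2 level was 5.45 on each of the control siRNA and siRNA #7 arrays and 4.83 with siRNA #8. The ratio to control was -0.0051 ± 0.14 for siRNA #7 and -0.62 ± 0.15 for siRNA #8 (log2), and the latter leaves 65.0% of the control level.

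*MT1X*, the last gene of the cluster, showed the lowest ratio of the 5 measured genes. Its brighter probe read 5253 on the control array, 4353 after siRNA #7 and 2091 after siRNA #8, and its dimmer probe read 808, 495 and 326. With siRNA #8 both probes stood at about the same share of control, 49.1% and 49.8%, with log2 ratios of -1.03 ± 0.15 and -1.01 ± 0.18. With siRNA #7 the probes disagreed, at 0.055 ± 0.14 on the brighter and -0.38 ± 0.15 on the dimmer probe, a difference of -0.43 with a spot-to-spot SD of 0.21.

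*MT1F*, also a metallothionein 1 gene, had 1 probe. It read 180, 171 and 118 on the control, siRNA #7 and siRNA #8 arrays, and its scaled log2 levels were 1.77, 2.02 and 1.46. The siRNA #7 array was the highest for this gene, and the siRNA #8 array the lowest. The log2 ratios to control were 0.25 ± 0.16 for siRNA #7 and -0.31 ± 0.18 for siRNA #8.

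**Figure D1:**
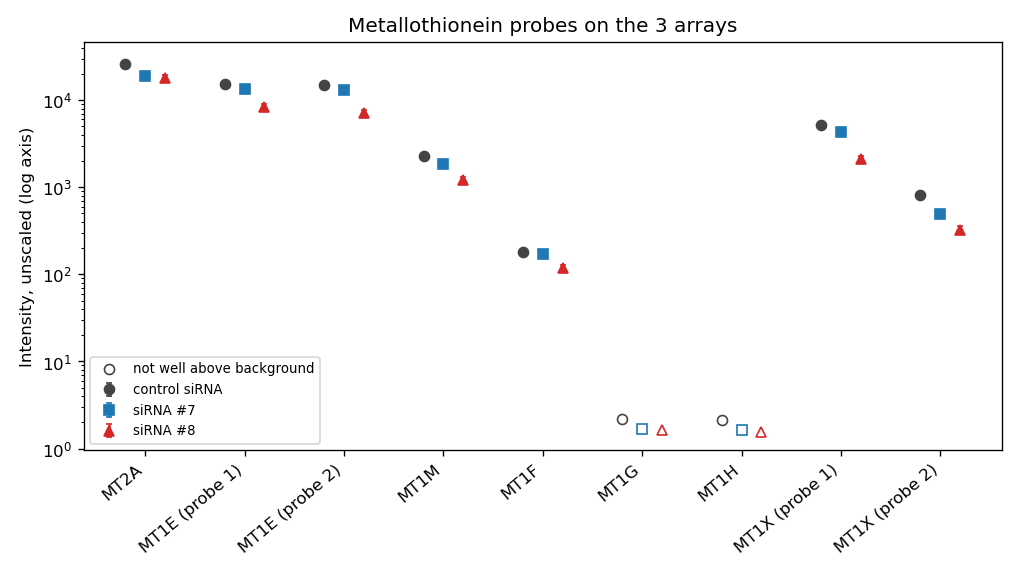
Unscaled intensity (log axis) of each of the 9 metallothionein probes on the control siRNA, siRNA #7 and siRNA #8 arrays, 1 point per array, with bars for the spot-to-spot SD and open points where a probe was not well above background. The siRNA #8 point is the lowest for every measured probe before scaling, and the *MT1G* and *MT1H* points lie between 1.56 and 2.17.

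The siRNA #8 array held lower metallothionein 1 signal than the control siRNA array. All 5 measured genes had a log2 ratio below 0 with siRNA #8, from -1.03 for *MT1X* to -0.25 for *MT2A*, and their median was -0.56, beside 0.0072 over the 12031 genes with a passing probe. *MT1X* alone was at least 2-fold lower, and none was 2-fold higher. Among all genes 3.03% were at least 2-fold lower and 1.95% at least 2-fold higher. *MT1X* lay close to the 2-fold threshold and fell short of it, at -0.97, both with neighbouring spots removed and with the 75th percentile taken over probes above background on all arrays, while *MT1E* passed it with normexp (-1.03). At 1.5-fold *MT1M* and *MT1X* were lower by the brightest probe of each gene, 2 of 5 beside 10.3% of all genes. *MT1E* fell just short of 1.5-fold on its brighter probe (-0.56) and passed it on its dimmer probe (-0.74). Of all genes, 2.75% had a ratio at or below that of *MT1X*, 9.0% at or below that of *MT1M*, 10.8% at or below that of *MT1E*, 22.5% at or below that of *MT1F* and 26.6% at or below that of *MT2A*. Bright genes spread less around 0. Among the 1144 genes with a control level at or above that of *MT1M*, a background chosen after seeing the data, the median ratio was 0.025 and 2.01% were at least 2-fold lower. Within the same arrays the log2 ratio of *MT1X* minus that of *MT2A* was -0.77 ± 0.21 (spot-to-spot SD), and the ratios of *MT1E*, *MT1M* and *MT1F* differed from that of *MT2A* by -0.31 ± 0.21, -0.37 ± 0.21 and -0.060 ± 0.24. In RNA from a whole culture, fewer expressing cells and less RNA per cell cannot be told apart.

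After siRNA #7 the metallothionein levels lay near those of control siRNA. By the brightest probe of each gene, the 5 ratios to control siRNA ran from -0.14 for *MT2A* to 0.25 for *MT1F*. Their median was 0.055 beside 0.014 over all genes. The dimmer *MT1X* probe lay lower, at -0.38 ± 0.15. None of the 5 was 2-fold lower or higher, where 1.72% of all genes were lower and 2.04% higher, and none was 1.5-fold lower, where 6.93% of all genes were. Among the 1144 bright genes 0.699% were 2-fold lower. Scaling on the E1A spike-in controls, which shifts every gene of an array alike, put all 5 genes below 0 (median -0.27) together with the median of all genes (-0.31), and relative to the latter the members' median was 0.041 as in the main setting. Normexp background correction also put all 5 below 0 (median -0.24), where the median of all genes was -0.059. This setting adds an offset of 50, beside 75th percentiles of 42.1 to 52.8 intensity units on these arrays. Bright genes alone were not compared under it, so no change of the metallothioneins is read from that shift. *MT2A* was below 0 with siRNA #7 under all 9 alternatives run on single genes, from -0.47 to -0.073.

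Set directly against siRNA #7, the siRNA #8 array was lower for all 5 genes. The log2 ratio was -0.11 ± 0.15 for *MT2A*, -0.70 ± 0.15 for *MT1E*, -0.62 ± 0.15 for *MT1M*, -0.56 ± 0.17 for *MT1F* and -1.08 ± 0.15 for *MT1X*, with a median of -0.62 beside -0.011 over all genes. *MT1X* was at least 2-fold lower, and *MT1E*, *MT1M* and *MT1X* were at least 1.5-fold lower. Among all genes 3.35% were 2-fold lower, 2.29% 2-fold higher and 11.6% 1.5-fold lower, and among the 1144 bright genes 1.66% were 2-fold lower. The dimmer *MT1X* probe gave -0.63 ± 0.16, so that its mean with the brighter probe was -0.85 and no longer 2-fold lower. For *MT2A* the ratio was 0.0016 once the median deviation of the neighbouring spots was removed, and this difference between the siRNAs is within the spot-to-spot SD.

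**Figure D2:**
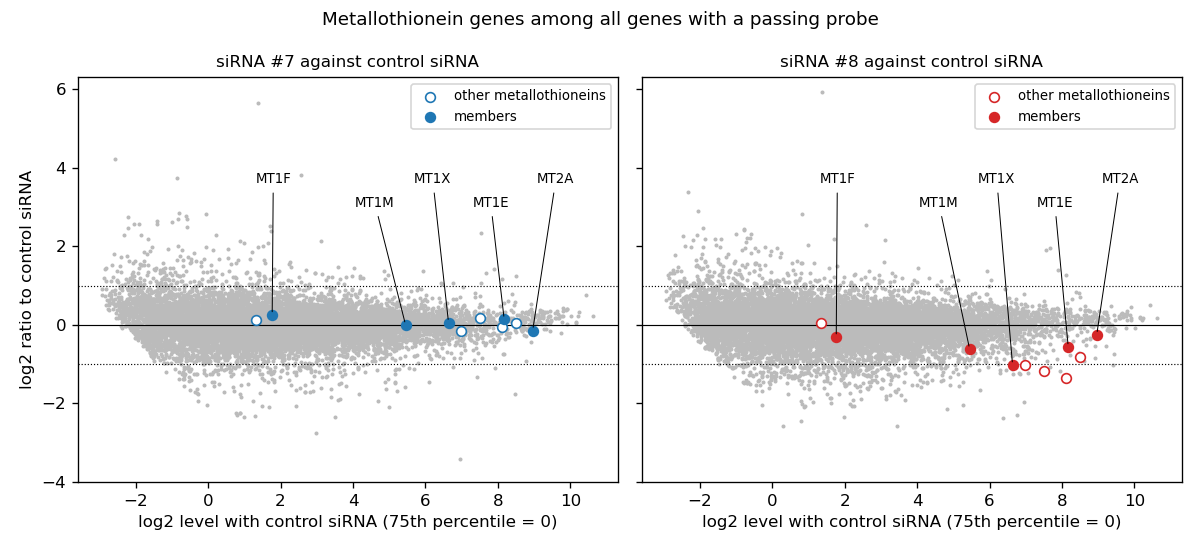
Log2 ratio to control siRNA (y axis) against the log2 level with control siRNA (x axis) for the 12031 genes with a passing probe (gray), the 5 measured metallothionein genes (filled) and 5 other metallothioneins (open), with dotted lines at 2-fold. In the siRNA #8 panel *MT1X* lies at -1.03 and *MT2A* at -0.25, and in the siRNA #7 panel the 5 genes lie between -0.14 and 0.25.

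The rest of the family was read the same way. Of 10 further metallothionein loci, 8 had a named probe and 5 were above background on all arrays. *MT1JP* and *MT1CP* had none. *MT1A*, a protein-coding metallothionein 1 gene, read 19210, 15805 and 8861 on the control, siRNA #7 and siRNA #8 arrays, which is -0.81 ± 0.15 (log2 ratio) for siRNA #8 and 0.045 ± 0.14 for siRNA #7. For *MT1B* the log2 ratios were -1.18 ± 0.15 and 0.18 ± 0.14 in that order. *MT1L*, a transcribed pseudogene, had -1.02 ± 0.15 and -0.16 ± 0.14. *MT1HL1*, which lies outside the cluster on chromosome 1, read 14636, 11239 and 4660, with ratios of -1.35 ± 0.15 and -0.054 ± 0.14. *MT3* differed from these, with ratios of 0.052 ± 0.18 and 0.12 ± 0.16. *MT1DP* was above background only with control siRNA, close to the detection limit, and is given no fold. *MT1IP* and *MT4* were not well above background on any array. Counted with the 7 genes above, 10 of 17 metallothionein loci were measured, of which 9 were below 0 with siRNA #8 and 4 were at least 2-fold lower, with a median of -0.72. Over all 12031 genes 5920 were below 0 and 3.03% at least 2-fold lower. With neighbouring spots removed *MT1B* was at -0.98 and *MT1X* at -0.97, short of 2-fold. With siRNA #7 the median of the same 10 was 0.050, with 6 above 0 and none past 2-fold. Since their probes may share targets, the 9 genes below 0 are not 9 separate observations.

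**Figure D3:**
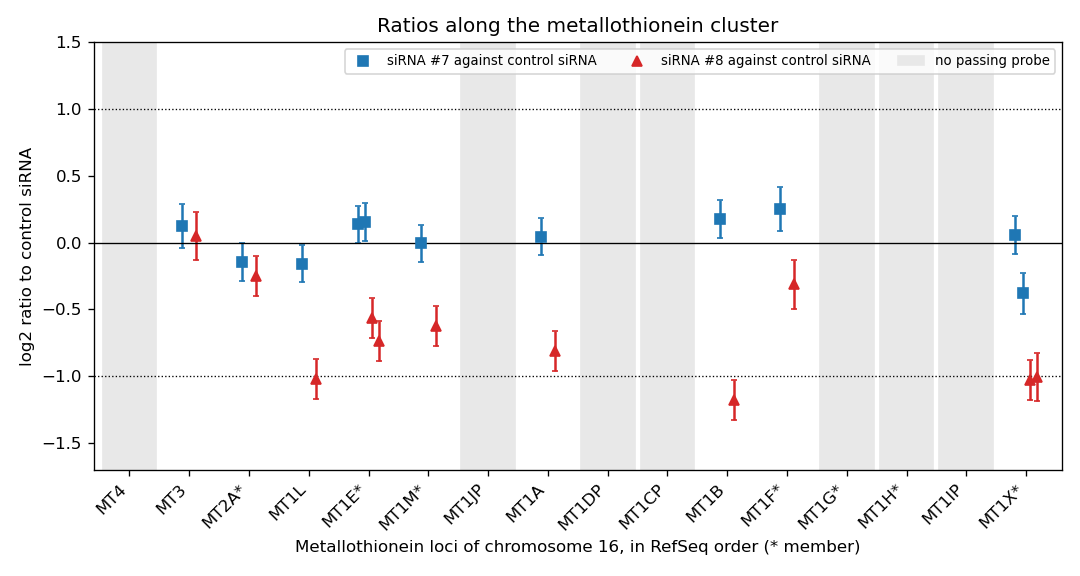
Log2 ratio to control siRNA of the metallothionein loci in their order along chromosome 16 (order only, no distances), with bars for the spot-to-spot SD and gray where no probe passed. The measured *MT1* loci lie below 0 with siRNA #8, between -1.18 and -0.31, whereas *MT3*, the first measured locus in this order, lies at 0.052.

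The position of a spot on the array was compared for each probe. Around the 7 member spots, 7 to 22 passing spots lay within 3 rows and 3 columns. None of these neighbours was 2-fold lower with siRNA #8 except 3 of 18 around *MT2A*. With the median deviation of the neighbours removed, the siRNA #8 ratio was -0.97 and -1.05 for the brighter and dimmer *MT1X* probe, -0.74 and -0.80 for those of *MT1E*, -0.46 for *MT1M*, -0.19 for *MT1F* and -0.072 for *MT2A*.

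Regulators and other genes of metal handling were compared on the same arrays. *MTF1*, the zinc-sensing activator of the family, read 119 on the control array, 74.0 after siRNA #7 and 68.1 after siRNA #8, with log2 ratios of -0.36 ± 0.19 and -0.51 ± 0.21. *SLC30A1* is a zinc exporter of the plasma membrane and itself an MTF1 target. Its promoter held 1 core, and 24.8% of all promoters searched held at least 1. *SLC30A1* read 108, 76.6 and 63.0, with ratios of -0.16 ± 0.19 and -0.47 ± 0.21. Both were lowest on the siRNA #8 array, and the log2 ratio of siRNA #8 to siRNA #7 was -0.14 ± 0.23 for *MTF1* and -0.31 ± 0.23 for *SLC30A1*.

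Of the zinc exporters 6 of 10 were measured (median log2 ratio to control -0.15 for siRNA #7 and -0.12 for siRNA #8), and of the zinc importers 11 of 14, with medians of -0.020 and -0.051. All 9 copper-handling genes were measured (medians 0.019 and 0.17), as were 7 of 8 metal- and stress-response factors (medians -0.029 and 0.037). By the brightest passing probe, none of these 4 lists held a gene past 2-fold with either siRNA. Among all genes 1.72% were 2-fold lower and 2.04% higher with siRNA #7, and 3.03% lower and 1.95% higher with siRNA #8. A dimmer probe of *ATP7A*, a copper-handling gene, was at -1.09 ± 0.40 with siRNA #7, and its brightest probe was at -0.22 ± 0.33. Of the glucocorticoid receptor targets 7 of 8 were measured, with medians of -0.056 and 0.12, and 1 was at least 2-fold higher with siRNA #7, as were 2.04% of all genes. That gene was *TSC22D3*, which encodes the glucocorticoid-induced leucine zipper, with ratios of 1.17 ± 0.16 with siRNA #7 and 0.52 ± 0.18 with siRNA #8. Of the other metal- and oxidant-induced genes 9 of 10 were measured. Their median was -0.074 with siRNA #7 and -0.34 with siRNA #8, with 8 of 9 below 0 and 2 at least 2-fold lower with siRNA #8, beside 5920 of 12031 genes below 0 and 3.03% at least 2-fold lower. *NQO1*, a quinone reductase induced through NRF2, had ratios of 0.33 ± 0.25 with siRNA #7 and -1.28 ± 0.34 with siRNA #8. *TXNRD1*, the cytosolic thioredoxin reductase and also an NRF2 target, had 0.039 ± 0.16 and -1.17 ± 0.21. Each of these genes had 1 probe on 1 spot. On the control, siRNA #7 and siRNA #8 arrays *NQO1* read 81.1, 81.1 and 27.1, and *TXNRD1* read 155, 127 and 55.5. Which *TXNRD1* transcripts its probe reads was not tested. The other measured genes of this list did not reach 2-fold with siRNA #8. They were *HMOX1* (0.48), *SRXN1* (-0.090), *GCLM* (-0.19), *GCLC* (-0.29), *DNAJB1* (-0.34), *HSPA1B* (-0.36) and *SLC7A11* (-0.56).

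**Figure D4:**
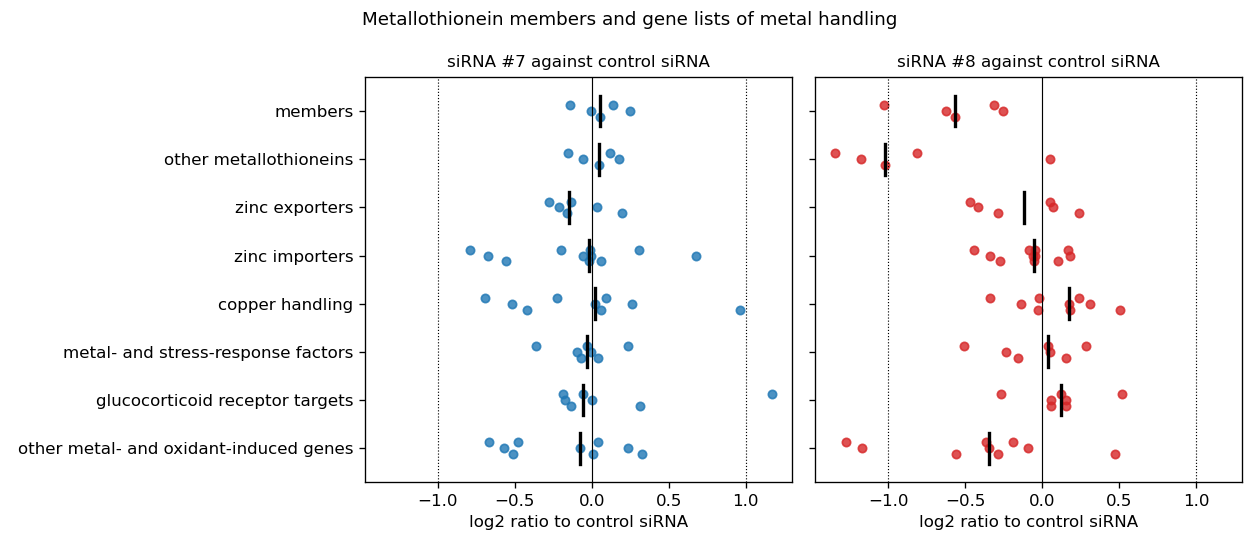
Log2 ratio to control siRNA of each measured gene in the metallothionein list and in the other metal-handling lists, 1 point per gene, with a bar at the median of each list, for siRNA #7 and siRNA #8. The metallothionein medians with siRNA #8 (-0.56 for the 5 members and -1.02 for the 5 others) lie below those of the other lists, which run from -0.34 to 0.17.

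The genes whose pair of ratios was most like the median pair of the 5 measured genes (0.055 with siRNA #7 and -0.56 with siRNA #8) were *CLIP1* (0.060 and -0.56), *ZNF780A* (0.059 and -0.55) and *RAB15* (0.043 and -0.57). Likeness was the Euclidean distance over those 2 ratios, which was 0.0043, 0.013 and 0.015. In all 119 genes lay within 0.1 of the median pair.

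The labels give both siRNAs the same genotype. Taken as 1 silenced group of 2 arrays against the control array in limma, with Benjamini-Hochberg adjustment over 18121 probes, none of the 7 member probes had an adjusted p under 0.05 or an unadjusted p under 0.05. The adjusted p of every member probe was 0.9998. Over all probes 1 passed the adjusted and 659 the unadjusted threshold. The mean of both siRNA ratios ran lowest for the dimmer *MT1X* probe, at -0.69 (unadjusted p = 0.11, limma), and was -0.20 for *MT2A*. This fit holds 1 control array and sets siRNA #7 and siRNA #8 as replicates of each other.

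**Figure D5:**
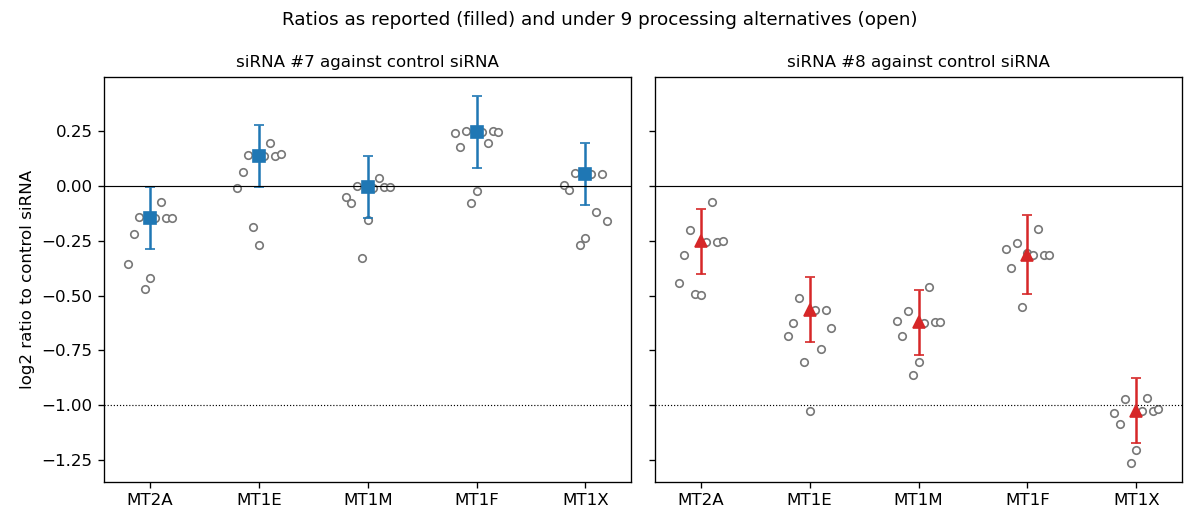
Log2 ratio to control siRNA of the 5 measured genes under the main setting and each of 9 alternative settings of scaling, background, position, flags and probe choice, with 1 point per setting, for siRNA #7 and siRNA #8. All points with siRNA #8 lie below 0, from -1.27 to -0.97 for *MT1X*, while with siRNA #7 the points of *MT1E*, *MT1F*, *MT1M* and *MT1X* fall on both sides of 0.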

How the data were processed

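Gene expression of HCT116 cells treated with control siRNA, siRNA #7 or siRNA #8 was measured on 1 array per condition, which limits the precision. The authors scanned the arrays with Agilent Feature Extraction 11.5.1.1, and the deposited intensity of each spot is background-subtracted and not scaled between arrays. A second table from the authors gives log2 values for 21189 probes. Differences between its columns matched those of the log2 intensities with a slope of 1 after a shift (0.325 for siRNA #7 and 0.302 for siRNA #8 against control siRNA) close to that of the 75th percentile (0.327 and 0.303), every probe was set to a median of 0 over the 3 arrays, and each column has a median of 0. The deposited file names use other siRNA numbers than the sample labels, and the labels were followed.

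From the intensities, flagged spots were left out (313 to 413 per array), spots of a probe were averaged and each array was scaled to its 75th percentile over all gene probes, in Python 3.11.15 with numpy 2.4.6 and pandas 2.3.3. Kept were 18121 probes well above background on all 3 arrays and at or above the 20th percentile on at least 2. Symbols came from RefSeq (GRCh38.p14) by unversioned accession, which named 30004 of 50599 gene probes. The brightest passing probe stood for a gene. The array was designed on an older build, so the only coordinates given are those of the RefSeq promoters.

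The members and gene lists were chosen with earlier results of these data known. Named are all members, *HOXA5*, *MTF1* and *SLC30A1*, list genes past 2-fold with either siRNA (at most 4 per list), and the 3 genes nearest to the members' median pair of ratios. The other measured or unmeasured metallothioneins are named for completeness. So are the other measured metal- and oxidant-induced genes, and *ATP7A* for a dimmer probe past 2-fold. As alternatives, arrays were quantile normalized or scaled on their median, the 75th percentile over probes above background on all arrays, or 10 E1A spike-in probes. Others were normexp (offset 50, on median spot signals, since no mean signal column is in the files used), the deposited log2 values, removal of the median deviation of neighbours within 3 rows and 3 columns, flagged spots kept, no or a stricter filter on dim probes, averaging a gene's probes, a 1.5-fold threshold, and limma 3.58.1 in R 4.3.3. In each scaling alternative the probe chosen under the main setting was kept, a choice made after seeing the data. The 75th percentile scaling, the 2-fold counts and limma were also run on simulated data, with some probes lowered alike in both siRNA arrays. A change with only a single siRNA was not simulated, nor were the other alternatives.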

Additional observations from a re-analysis of the deposited data

Results flagged for a closer look

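For *MT1F* the ratio to control siRNA was above 0 with siRNA #7 and below 0 with siRNA #8, each by more than 1 spot-to-spot SD (0.25 ± 0.16 and -0.31 ± 0.18), and for this it is listed. On their brighter probes *MT1E* and *MT1X* also had ratios of opposite sign, with a siRNA #7 ratio within 1 SD of 0. Their dimmer probes differed from this. For *MT1E* the dimmer probe lay more than 1 SD from 0 in each direction (siRNA #7: 0.16 ± 0.14, siRNA #8: -0.74 ± 0.15), as for *MT1F*. For *MT1X* the dimmer probe was below 0 in both comparisons (siRNA #7: -0.38 ± 0.15, siRNA #8: -1.01 ± 0.18). The log2 ratio of siRNA #8 to siRNA #7 was -0.56 (spot-to-spot SD 0.17) for *MT1F*, and it was -0.28 with normexp and -0.39 with neighbouring spots removed. With 1 array per siRNA the difference was not tested. The siRNA #7 ratio of *MT1F* was -0.024 with normexp, and -0.076 with spike-in scaling, which moved the median of all genes to -0.31.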

How the results depend on the processing

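The siRNA #8 ratio to control siRNA stayed below 0 for each of the 5 measured genes under all 9 alternatives run on single genes, from -1.27 to -0.97 for *MT1X*, -1.03 to -0.51 for *MT1E*, -0.86 to -0.46 for *MT1M*, -0.55 to -0.19 for *MT1F* and -0.50 to -0.072 for *MT2A*. The median with siRNA #8 was -0.81 with spike-in scaling, -0.81 with normexp and -0.31 with no filter on dim probes, which adds *MT1G* and *MT1H*, and the median with siRNA #7 was -0.27 with spike-in scaling and -0.24 with normexp. Spike-in scaling moved the median of all genes to -0.31 with siRNA #7 and -0.23 with siRNA #8, and relative to it the members' median with siRNA #8 was -0.57, as in the main setting. The count past 2-fold with siRNA #8 against control siRNA, 1 in the main setting (*MT1X*), was 0 with the 75th percentile over probes above background on all arrays (*MT1X* at -0.97), 0 with neighbouring spots removed (-0.97), 2 with normexp (*MT1E* and *MT1X*) and 2 at 1.5-fold. Against siRNA #7 the same count, also 1, was 0 with spike-in scaling, normexp, neighbouring spots removed and the mean of the probes (*MT1X* between -0.996 and -0.85), and 3 at 1.5-fold. The median of siRNA #8 against siRNA #7 kept between -0.65 and -0.50 under 11 alternatives. The cause of these shifts was not tested. *MT1G* and *MT1H* lie under the background limit of these arrays. No paired analysis was possible because there is only 1 array of each treatment, and no replicate could be left out.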

Other observations

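Metal-handling genes outside the naming rule are given here because their values were seen to differ between the siRNAs. *HMOX1*, the inducible heme oxygenase, read 868 on the control array, 434 after siRNA #7 and 976 after siRNA #8. Its log2 ratios to control were -0.67 ± 0.048 and 0.48 ± 0.051 (1 array each). The *HMOX1* probe was printed 10 times, so this error is the spot-to-spot SD reduced for a mean over 10 spots. It cannot be set beside the errors of probes on 1 spot. The siRNA #8 array was the highest for this gene and the siRNA #7 array the lowest. *SLC39A3*, a zinc importer, read 91.9, 117 and 54.9, with ratios of 0.68 ± 0.23 and -0.44 ± 0.26. These genes were chosen after their values were seen, and the differences were not tested.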
